A study of Gallus gallus with 28 samples.

Results

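The genes described here are the 100 of the chicken intestine whose transcripts stood highest, relative to the ages on either side, at hatch and 1 day after it. They were selected on measured values. For each gene the smaller of its mean log2 intensities at hatch and day 1 was taken, and the largest of its means at embryonic days 18 and 20 and days 7 and 14 was subtracted, which gives its peak height. Of 8396 genes that passed the filter on low values (log2 intensity over 4 in at least 4 arrays), 8159 were ranked by this height and the first 100 were kept. Symbols beginning SLC, CYP, ALDH, GST, UGT, SULT or ABC were left out of the ranking, and day 3 played no part in it. The peak height of these genes is therefore given as a description, without a test.

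The arrays measured total RNA from the intestine of male chick embryos and chicks, with 4 arrays at each of 7 ages and no treatment named. The groups are embryonic day 18 (e18), embryonic day 20 (e20), the day of hatch (hatch), and day 1 (d1), day 3 (d3), day 7 (d7) and day 14 (d14) after hatch. The design text names the small intestine and the tissue label reads whole intestine; per the labels, RNA came from 6 birds per age. Lines A and B of birds and 2 pools are named but tied to no array. The p-values below therefore rest on the spread between these arrays alone, which may be partly technical.

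Before hatch a chick lives on yolk, whose lipid is its main fuel, and residual yolk goes on feeding it for a short time after hatch. The intestinal epithelium meanwhile prepares for starch and protein from feed. Enterocytes, the absorptive cells of the villus, carry digestive enzymes on their brush border, burn fatty acids and amino acids in mitochondria and peroxisomes, and detoxify what they absorb. Most of the 100 genes with a known role belong to such metabolism, and the roles given below are known mainly from mammals.

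Some facts of the arrays bear on what follows. Background, taken as the 95th percentile of 541 probe sets whose IDs begin with NC-, lay between 2.97 and 3.54 on the log2 scale. VIL1, which encodes the microvillus protein villin, averaged 10.43 at e18, 12.72 at hatch and 12.45 at d14, above background at each of these ages. The e18 arrays stood apart through transcripts of other cells. Averaged over 17 pancreatic genes, they lay between 7.81 and 8.13 at e18, and the e20 arrays between 2.85 and 3.58. Averages over 11 genes of heterophils (the avian granulocytes) lay between 7.77 and 8.73 at e18 against 3.57 to 3.73 at e20. Within an age, arrays next to each other in record order (the first 2, the last 2) differed less than others: correlations across genes of the deviations from the age mean lay between -0.09 and 0.25 within these pairs and between -0.65 and -0.34 across them. Deviations of 4 arrays from their own mean correlate at about -0.33 by construction, and at hatch and d3 the values across pairs reached up to -0.34 and -0.36. The labels do not say what separates them. Because whole tissue was measured, fewer cells of a type and less RNA per cell cannot be told apart.

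The peak height ranged from 0.36 to 2.85 with a median of 0.552 on the log2 scale, and 11 genes reached 1. Among all ranked genes 616 had a height above 0. The last genes inside the limit were CPT2, PAPSS2, PDSS1, GPD1L2 and PARP3, at 0.369, 0.367, 0.366, 0.365 and 0.360. The first outside were HIBCH, GOT1, ACADS, DYNLT3 and RFLNA, at 0.360, 0.357, 0.356, 0.354 and 0.352, so the limit falls within a continuous series. In 47 of the 100 genes every one of the 8 hatch and d1 arrays lay above every one of the 16 arrays of the flanking ages. Over all genes tested this held for 81 (0.965%), and since the members were chosen on these arrays nothing is read from their count. Both age means lay above those of all 4 flanking ages in 679 of the 8396 genes (8.09%).

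The members stood much further below the peak at e18 than at e20, d7 or d14, which lay at similar distances from it. Set against each gene's mean of hatch and d1, the members' median on the log2 scale was -2.089 at e18, -0.889 at e20, -0.774 at d7 and -0.934 at d14. The lowest mean fell at e18 in 83 genes and at d14 in 10. The flanking age nearest to the peak was d7 in 43 genes, e20 in 36, d14 in 17 and e18 in 4. At d3, which the ranking did not use, 49 genes were already below their highest flanking age, 42 lay between it and the peak, and 9 were still at or above the smaller of the hatch and d1 means. On the same scale their median at d3 was -0.66. The means that d3 is set against were used to choose the members. The d3 counts, here and by group below, are therefore a description from which nothing is read.

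**Figure D1:**
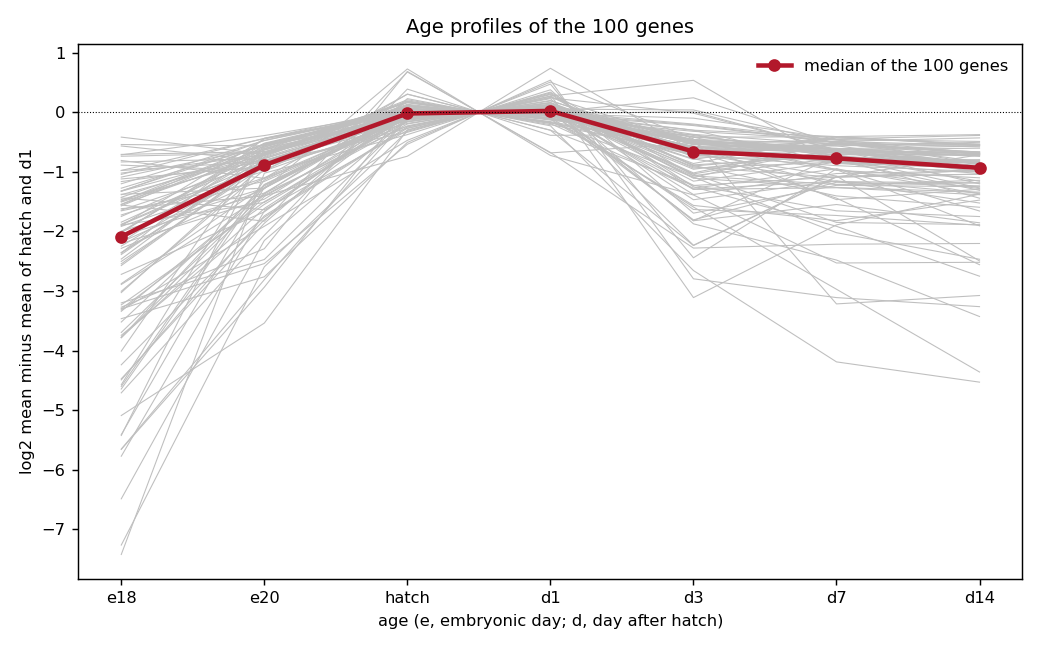
Age means of each of the 100 genes (grey lines) and their median (red), as log2 intensity minus the gene's mean of hatch and d1, across the 7 ages. The median climbs from -2.089 at e18 to the 2 ages that define the peak and is back at -0.66 by d3, with a wide spread at e18 that reaches -7.422.

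Genes of amino acid and glutathione metabolism held the first place. GLDC (gene ID 374222), the glycine-splitting enzyme of the mitochondrial glycine cleavage system, had a peak height of 2.85. Its log2 values were 3.99, 4.08, 4.95 and 5.08 at e18 and 6.57, 7.29, 6.24 and 8.88 at e20. They were 8.84, 10.00, 10.37 and 11.88 at hatch, 8.75, 9.43, 11.05 and 11.13 at d1 and 7.69, 7.71, 9.42 and 9.53 at d3. At d7 they were 5.12, 4.94, 9.50 and 9.29, and at d14 4.29, 4.54, 6.25 and 8.20. All arrays of hatch and d1 lay above all arrays of e18, but the groups overlapped with e20 and d7, and at d7 the last 2 arrays stood far above the first 2. AGMAT, agmatinase, which makes putrescine from agmatine, stood at 6.17 ± 0.31 at e18 (SD, n = 4 arrays here and below), 8.74 ± 0.36 at e20, 9.92 ± 0.44 at hatch, 9.98 ± 0.13 at d1, 8.88 ± 0.27 at d3 and 8.77 ± 0.34 at d14. CSAD, an enzyme of the route from cysteine to taurine, went from 4.73 ± 0.09 at e18 to 7.68 ± 0.20 at d1 and 6.65 ± 0.11 at d14.

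FTCD, which passes a one-carbon unit from histidine to folate, stayed low throughout, with its highest mean of 4.70 ± 0.68 at d1 and its lowest of 3.23 ± 0.23 at d14. GSS, glutathione synthetase, averaged 6.89 ± 0.21 at e18, 8.57 ± 0.17 at d1 and 7.71 ± 0.11 at d14. CHAC2, a cytosolic enzyme that breaks glutathione down, averaged 7.35 ± 0.09 at hatch and 7.35 ± 0.20 at d1 and its highest mean, 7.59 ± 0.40, fell at d3. HYKK, hydroxylysine kinase, averaged 7.19 ± 0.23 at hatch and 6.59 ± 0.42 at d1, and its lowest mean, 4.65 ± 0.78, fell at d3. Of the 12 genes of this group, 6 were at d3 already below their highest flanking age.

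Nucleotide, sulfate and cofactor enzymes formed a group of 9. In 8 of them the 8 peak arrays cleared all 16 flanking arrays, beside 47 of the 100 members and 0.965% of all genes. The members were chosen on these arrays, so nothing is read from this count. ADA, adenosine deaminase, was among the most intense members, at 9.14 ± 0.37 at e18, 12.56 ± 0.27 at e20, 13.68 ± 0.14 at hatch, 13.88 ± 0.06 at d1 and 12.93 ± 0.31 at d14. UPP1, uridine phosphorylase, went from 8.22 ± 0.42 at e20 to 9.95 ± 0.29 at hatch and 8.89 ± 0.30 at d14. The sulfate pathway was represented at both ends: PAPSS2, which makes the active sulfate PAPS, averaged 8.80 ± 0.49 at hatch, and BPNT1, which clears its spent product PAP, averaged 12.31 ± 0.19. ALAS1, the first enzyme of heme synthesis, lay at 9.82 ± 0.19 at hatch and 10.00 ± 0.21 at d1 against 9.27 ± 0.12 at e20 and 9.27 ± 0.09 at d7. URAH, 5-hydroxyisourate hydrolase, fell back furthest of the 9, from 8.37 ± 0.21 at d1 to 6.62 ± 0.38 at d14.

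The 15 lipid and bile acid genes had a median height of 0.528, and their median distance from the peak was 2.545 at e18 and 0.701 at d14. ACOX2, the peroxisomal oxidase of branched acyl chains and bile acid precursors, read 6.74, 7.10, 6.47 and 6.66 at e18 and 7.91, 7.33, 7.29 and 7.37 at e20. It read 8.69, 8.85, 8.51 and 9.02 at hatch, 8.33, 8.43, 7.89 and 8.01 at d1 and 7.44, 7.26, 7.40 and 6.84 at d3. It read 7.25, 7.42, 7.54 and 7.29 at d7 and 7.65, 7.56, 7.15 and 7.62 at d14, so every hatch array was above every d1 array, and 3 of the 4 d1 arrays were above all arrays of the other ages.

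BAAT, which joins bile acids to taurine or glycine, averaged 11.95 ± 0.11 at hatch and 11.97 ± 0.10 at d1 against 9.78 ± 0.12 at e18 and 11.10 ± 0.18 at d14. FABP6, the cytosolic bile acid binding protein of the ileum, reached the highest intensity of all 100 genes, with 14.74 ± 0.15 at d1, after 8.96 ± 1.50 at e18. NR0B2, a nuclear receptor that in mammals represses bile acid synthesis, read 8.32, 8.77, 8.24 and 8.13 at e18, 9.00, 9.07, 9.00 and 9.37 at e20 and 10.52, 10.77, 10.43 and 10.65 at hatch. It read 10.34, 10.52, 10.65 and 10.65 at d1, 10.23, 10.61, 10.18 and 10.41 at d3, 10.18, 10.22, 9.98 and 9.87 at d7 and 9.92, 9.83, 9.90 and 9.81 at d14. Its hatch and d1 arrays lay above every array of e18, e20, d7 and d14, while those of d3 overlapped with the peak.

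Fatty acid oxidation was represented by CPT2, which frees acyl-CoA inside the mitochondrion, at 10.68 ± 0.21 at hatch against 8.92 ± 0.14 at e18 and 10.29 ± 0.08 at d14, by ACAA2, the last enzyme of the mitochondrial cycle, at 12.56 ± 0.15 at hatch against 11.59 ± 0.10 and 12.13 ± 0.13, and by the peroxisomal thioesterase ACOT8. ACOT8 averaged 5.22 ± 0.22 at e18, 9.47 ± 0.23 at hatch, 9.96 ± 0.40 at d1 and 8.72 ± 0.32 at d14. CIDEC, a lipid droplet protein, went from 3.72 ± 0.50 at e18 to 9.48 ± 0.42 at d1 and was still at 8.68 ± 0.32 at d14. HPGDS, the glutathione-dependent prostaglandin D synthase, averaged 13.41 ± 0.67 at d1 against 10.36 ± 0.35 at e18 and 12.49 ± 0.27 at d7.

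Redox and conjugation genes numbered 13. STEAP4, a reductase of iron and copper, ranked second of the 100, at 2.26. It read 2.99, 2.84, 2.85 and 2.78 at e18, 3.03, 3.01, 3.04 and 5.19 at e20 and 3.04, 5.57, 8.03 and 6.65 at hatch. It read 5.87, 7.10, 6.91 and 7.47 at d1, 4.60, 6.95, 5.27 and 6.70 at d3, 3.20, 3.20, 3.05 and 3.00 at d7 and 3.17, 3.02, 3.80 and 3.02 at d14. Array 1 of hatch and all but array 4 of e20 were near background, so the hatch mean of 5.82 stands over a wide spread, and d3 (5.88) was no lower than hatch. The d1 mean was at least 14.3-fold above e18 and at least 12.2-fold above d7, both at or below background.

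PNAT3, an arylamine N-acetyltransferase, averaged 6.76 ± 0.29 at e18, 10.64 ± 0.26 at hatch and 10.28 ± 0.12 at d1. PNAT10, of the same family, averaged 6.54 ± 0.17 at e18, 9.64 ± 0.40 at hatch and 10.04 ± 0.23 at d1, and neither gene passed the test of d1 against hatch. NQO1, a quinone reductase, averaged 11.60 ± 0.14 at hatch, 11.19 ± 0.25 at d1 and 10.62 ± 0.31 at d7. GPX4, which reduces lipid peroxides, averaged 12.50 ± 0.28 at hatch, 13.18 ± 0.32 at d1 and 11.40 ± 0.58 at d14. CYBRD1, the ferric reductase of the duodenal brush border, averaged 9.75 ± 0.43 at d1 and 8.68 ± 0.49 at d3. NR1I3, a nuclear receptor of the response to foreign compounds, went from 3.81 ± 0.58 at e18 to 7.97 ± 0.09 at d1. Most of that rise came before e20 (7.27 ± 0.36), and at d7 it averaged 7.08 ± 0.24. DCXR, dicarbonyl and xylulose reductase, dropped from 9.65 ± 0.21 at d1 to 7.85 ± 0.21 at d3, the lowest of its 7 means.

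ME1, the cytosolic malic enzyme that supplies NADPH, led the 6 genes of carbohydrate and central metabolism. It read 6.24, 6.44, 5.77 and 5.92 at e18, 8.45, 8.60, 7.78 and 8.19 at e20 and 9.79, 9.87, 9.54 and 10.02 at hatch. It read 10.27, 10.24, 9.53 and 9.68 at d1, 7.73, 8.38, 8.11 and 7.98 at d3, 8.26, 8.02, 8.64 and 8.37 at d7 and 7.42, 7.99, 8.36 and 8.28 at d14. The 8 peak arrays lay between 9.53 and 10.27, above every array of the other 5 ages. HKDC1, a hexokinase, averaged 6.32 ± 0.31 at e18, 10.96 ± 0.20 at d1 and 9.78 ± 0.38 at d14. PFKL, phosphofructokinase of the liver type, averaged 9.16 ± 0.26 at d1 and 7.46 ± 0.22 at d14, and CRYL1, gulonate dehydrogenase, averaged 11.62 ± 0.05 and 10.07 ± 0.40. SAMM50, part of the machinery that inserts proteins into the mitochondrial outer membrane, was the leading gene of the 4 mitochondrial membrane members, at 6.71 ± 0.17 at hatch against 5.88 ± 0.45 at e20 and 5.53 ± 0.43 at d14.

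The 6 genes of digestion and uptake at the gut surface had a median distance of 5.531 between e18 and the peak, the largest among the role groups. TMPRSS15 encodes enteropeptidase, the brush border protease that activates trypsinogen. It read 2.63, 2.74, 2.74 and 3.37 at e18, 7.53, 7.44, 7.16 and 8.03 at e20 and 9.00, 9.77, 10.34 and 10.14 at hatch. It read 10.51, 10.34, 10.38 and 10.60 at d1, 8.32, 8.80, 9.05 and 9.36 at d3, 7.41, 7.58, 8.69 and 9.20 at d7 and 6.96, 6.75, 7.25 and 8.57 at d14. The d1 arrays lay above every array of e18, e20, d3, d7 and d14, while those of hatch overlapped with d3 and d7. Day 1 was at least 164.1-fold above e18, where the mean was at or below background.

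CUBN encodes cubilin, the receptor for intrinsic factor with vitamin B12. It read 2.48, 2.92, 2.59 and 3.14 at e18, 9.57, 9.70, 8.30 and 9.14 at e20 and 10.30, 9.98, 9.34 and 9.70 at hatch. It read 10.62, 10.31, 10.47 and 10.91 at d1, 7.51, 9.60, 7.81 and 9.12 at d3, 8.44, 8.42, 9.39 and 9.66 at d7 and 7.96, 8.85, 9.72 and 9.28 at d14. The d1 arrays were above all arrays of other ages, whereas the hatch arrays overlapped with e20, d3, d7 and d14. TCN2, the transport protein for vitamin B12 in blood, averaged 4.51 ± 0.34 at e18, 7.64 ± 0.13 at d1 and 6.74 ± 0.39 at d14. FOLH1, the brush border enzyme that trims dietary folate, averaged 8.25 ± 0.06 at d1 and 6.67 ± 0.25 at d3. PLB1, a brush border phospholipase, averaged 3.72 ± 0.49 at e18, 10.32 ± 0.10 at d1 and 9.37 ± 0.33 at d14. REG4, a secreted lectin of the gut, averaged 10.72 ± 0.61 at hatch and 8.20 ± 0.74 at d14.

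HPX, hemopexin, the heme carrier of plasma, was 1 of 3 secreted plasma-type proteins. It read 3.08, 2.92, 2.54 and 2.53 at e18, 6.36, 5.48, 4.14 and 5.52 at e20 and 8.28, 7.78, 6.85 and 6.97 at hatch. It read 7.61, 7.70, 6.66 and 6.09 at d1, 6.31, 5.29, 3.82 and 2.91 at d3, 2.83, 4.04, 2.75 and 2.58 at d7 and 2.74, 3.03, 2.54 and 2.53 at d14. Hatch was at least 22.1-fold above e18 and at least 19.9-fold above d14, whose means were at or below background. VTN, vitronectin, averaged 7.63 ± 0.51 at hatch and 8.25 ± 0.47 at d1 against 6.30 ± 0.65 at e20, and FETUB, fetuin B, 9.88 ± 0.13 against 6.03 ± 0.45 at e18. These proteins are known from liver. Of 19 markers of liver and yolk sac on the array, 9 were above background at e18, 7 at e20, 8 at hatch and 8 at d1. AHSG, APOH, FGA, AMBP, ITIH2 and PIT54 were above it at no age. The mean of the list lay between 4.85 and 5.28 at e18 and between 4.83 and 4.98 at e20. It lay between 4.91 and 5.10 at hatch and between 4.99 and 5.24 at d1. Of the 9 liver markers tested, 4 were higher at hatch and d1 than at the flanking ages (VTN itself, APOA1, F2 and HNF4A) and 2 lower, and F2, prothrombin, averaged 6.71 at e18, 5.90 at e20, 6.70 at hatch and 6.92 at d1. APOA1 and HNF4A are also genes of enterocytes, and the part of liver-type transcripts in these values was not tested.

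The remaining members with a known role were of mixed kind. TMEM213, a small membrane protein, read 3.74, 4.12, 3.71 and 4.29 at e18, 5.58, 5.27, 3.32 and 4.73 at e20 and 7.17, 6.13, 6.90 and 6.72 at hatch. It read 8.08, 7.91, 7.64 and 7.59 at d1, 4.15, 4.26, 4.28 and 5.19 at d3, 4.15, 4.14, 4.19 and 4.14 at d7 and 3.74, 4.03, 4.13 and 4.11 at d14. Its d1 arrays were the highest, its hatch arrays came next without overlap, and the arrays of d3, d7 and d14 were within the range of e18 but for 1 array of d3. LRFN5, an adhesion protein first known from synapses, averaged 7.97 ± 0.25 at d1 and 4.31 ± 0.44 at d14. BMX, a cytoplasmic tyrosine kinase, averaged 5.84 ± 0.24 at hatch, 4.49 ± 0.35 at d1 and 2.89 ± 0.09 at d3. GJB1, a gap junction protein, went from 9.81 ± 0.07 at hatch to 7.18 ± 0.63 at d14. ATP13A4, a membrane pump of the P-type, had its highest mean, 4.00 ± 1.08, at d3 and was at or below background at hatch.

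DAB2, an adaptor of endocytosis, averaged 6.04 ± 0.36 at hatch and 4.19 ± 0.51 at d14, and NKIRAS1, an inhibitor of NF-kappa-B signalling, 7.26 ± 0.51 and 5.94 ± 0.23. Also in this group were SDF2, TMEM79, TMEM14A, ASCC3, CENPV and PARP3, with heights between 0.360 and 0.467. Its other 5 members, RGCC (0.665), SEBOX (0.559), MPP1 (0.521), CELSR3 (0.473) and DFNA5 (0.416), come up with the tests. AOC3, an amine oxidase of the redox group, averaged 5.84 ± 0.66 at hatch, 6.09 ± 0.21 at d1 and 3.73 ± 1.06 at d3, and at e18 it was at or below background.

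For 14 members no role is stated here. LOC770450 led them, with 8.63, 8.61, 10.42 and 10.94 at hatch and 9.31, 9.81, 10.60 and 11.24 at d1. Its values were 2.51, 3.05, 6.87 and 7.00 at e18 and 5.54, 4.70, 6.03 and 9.36 at e20. They were 5.67, 5.16, 7.86 and 8.65 at d3, 5.35, 5.34, 11.50 and 10.03 at d7 and 6.47, 6.88, 10.38 and 10.57 at d14. At each age the last 2 arrays stood above the first 2. The last 2 arrays of d7 and d14 were as high as arrays of hatch and d1, so the groups overlapped. DDTL, a relative of the D-dopachrome tautomerase gene, averaged 10.08 ± 0.10 at e20, 11.32 ± 0.12 at hatch, 11.40 ± 0.19 at d1 and 10.27 ± 0.35 at d7. PBLD averaged 10.00 ± 0.36 at hatch and 8.08 ± 0.14 at d14, LOC424430 8.12 ± 0.24 and 7.25 ± 0.31, and LOC421740 13.73 ± 0.17 and 12.84 ± 0.40. LOC771994 averaged 5.16 ± 1.27 at hatch and 4.26 ± 0.83 at d14. Its arrays read 3.87, 4.33, 5.84 and 6.60 at hatch and 3.57, 3.66, 7.04 and 7.10 at d1. Only the last 2 arrays of hatch and of d1 lay above all its arrays of the flanking ages. KIAA0895L, FAHD2A, LOC423222, LYPLAL1, LOC107056277, SCCPDH, LOC420807 and GPD1L2 had heights between 0.365 and 0.610. Of the 14 genes 8 were at d3 already below their highest flanking age.

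**Figure D2:**
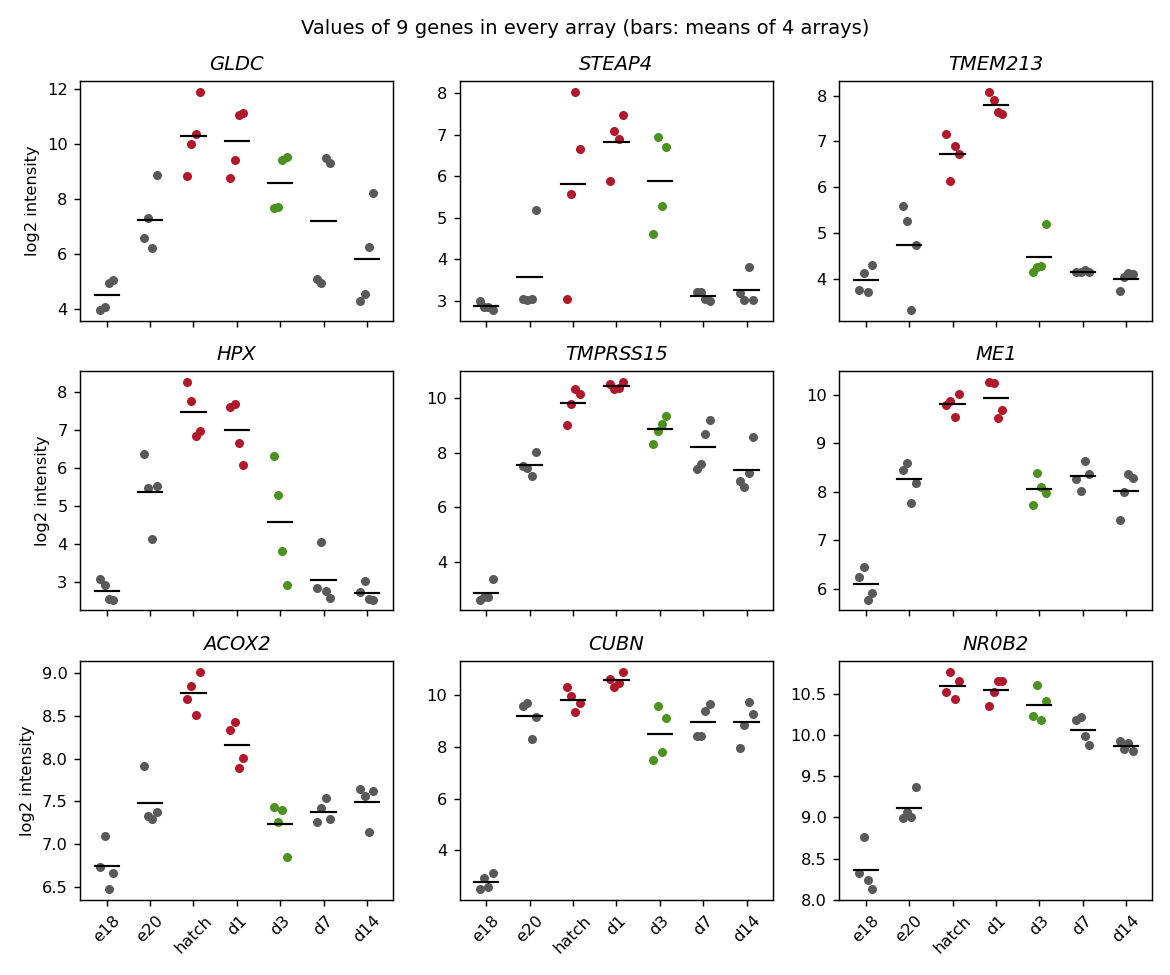
Log2 intensities in each of the 4 arrays per age (points) and age means (bars) of 9 genes: the first 6 by peak height and ACOX2, CUBN and NR0B2; hatch and d1 are red, d3 green, other ages grey. The ME1 arrays of hatch and d1 sit between 9.53 and 10.27, clear of all others, whereas STEAP4 has a hatch array at 3.04 and GLDC splits at d7.

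**Figure D3:**
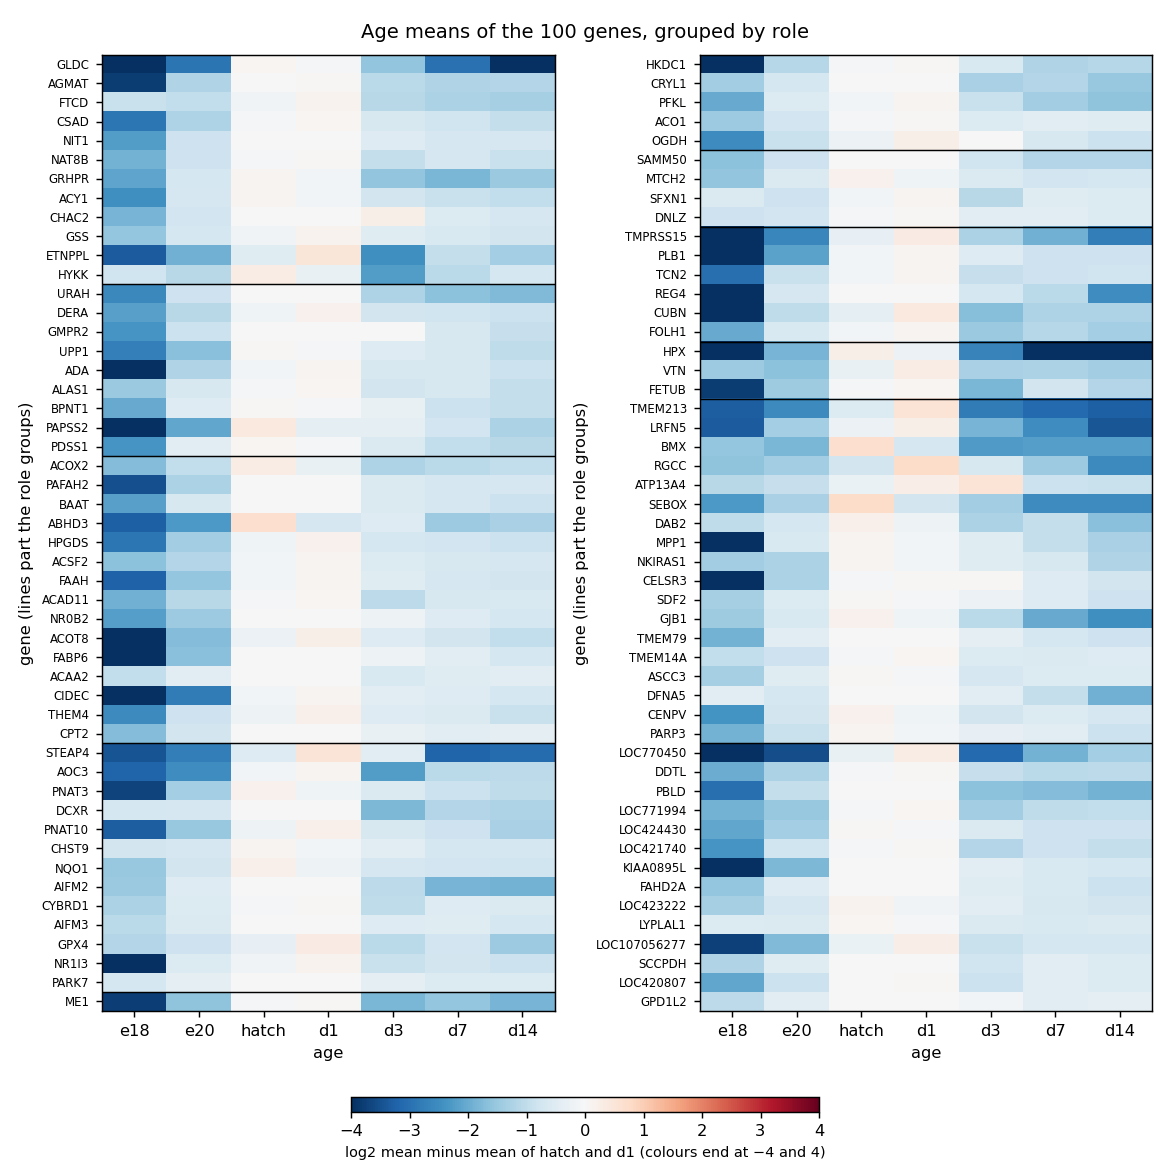
Age means of all 100 genes minus each gene's mean of hatch and d1, as log2 differences in colour, with lines between the role groups. The darkest blue is at e18, where the group of gut surface genes has a median distance of 5.531 from the peak.

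Whether the 2 peak ages differ was tested with limma, with one mean per age and p-values adjusted by Benjamini and Hochberg over 8396 genes. Of the 100 members 3 were higher at d1 than at hatch and 4 were lower, while over all genes 12.5% were higher and 22.7% lower. The ranking takes the smaller of both means and so favours genes alike at hatch and d1, and nothing is read from the low counts. RGCC, a regulator of the cell cycle known from the complement response, rose by 1.48 ± 0.31 (log2 difference ± SE, adjusted p = 0.000717), from 6.92 ± 0.40 to 8.40 ± 0.56. TMEM213 rose by 1.08 ± 0.32 (adjusted p = 0.0102). BMX fell by 1.35 ± 0.20 (adjusted p = 1.83e-05), SEBOX, a homeobox factor, by 1.45 ± 0.38 (adjusted p = 0.0045), ABHD3, a phospholipase, by 1.37 ± 0.38 (adjusted p = 0.00628) and ACOX2 by 0.60 ± 0.17 (adjusted p = 0.00624). OGDH, a subunit of the oxoglutarate dehydrogenase complex, rose by 0.48 ± 0.16 (adjusted p = 0.025), a call that was lost without any 1 of 4 single arrays (arrays 3 and 4 of hatch, arrays 1 and 2 of d1). Its difference was -0.11, the other direction, with the mean over its probe sets. Without array 4 of d1 the count higher was 6, and without array 1 of hatch the count lower was 7. The count higher was 7 with equal medians or with a term for the array pairs, and 5 after quantile normalization or without e18. The count lower was 7 with the mean over probe sets and 2 with a filter at log2 over 6, so the balance between both directions depends on such choices.

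Before the peak, most members were already rising. Between e18 and e20, ages that the ranking treats alike, 78 of 100 members were higher at e20 and 0 lower by the same limma fit, against 29.2% and 25% of all genes. At an unadjusted p under 0.05 the counts were 79 and 0, and without array 4 of e20 the count called lower was 1. The median difference was 1.05 for members and 0.04 for all genes. Both means entered the ranking, so the values over all genes do not say what to expect of genes chosen this way. CUBN rose at least 70.6-fold over background, where its e18 mean lay (adjusted p = 4.17e-12). MPP1, a membrane scaffold protein, rose by 4.81 ± 0.19 (adjusted p = 3.98e-16) and PLB1 by 4.33 ± 0.23 (adjusted p = 8.37e-14). TMPRSS15 rose at least 21.7-fold over background (adjusted p = 2.26e-10), and CELSR3, an adhesion cadherin, by 4.15 ± 0.32 (adjusted p = 1.08e-10). FABP6, REG4, HKDC1, NR1I3 and ADA followed, with rises between 3.43 and 4.11.

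By role, all 15 lipid and bile acid genes, all 9 nucleotide, sulfate and cofactor genes and all 6 genes of the gut surface were higher at e20 than at e18, and 6 of 13 redox and conjugation genes were. Over all genes 29.2% were higher and 25% lower. The members were chosen on these arrays and the role groups with results known, so differences between roles are only described. VTN, FTCD, DFNA5, HYKK, SFXN1, LYPLAL1 and BMX had e20 means below their e18 means, none of them called. The e18 arrays are those that held pancreatic and heterophil transcripts, and the part of those transcripts in these differences was not tested.

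After the peak, little moved between d7 and d14. Of the members 0 were higher at d14 and 1 lower, beside 0.405% and 0.453% of all genes, so the low counts are those of the whole table. At an unadjusted p under 0.05, 0 members were higher at d14 and 9 lower. DFNA5, gasdermin E, a pore-forming protein of cell death, fell by 0.94 ± 0.16 (adjusted p = 0.00209), from 6.58 ± 0.13 to 5.63 ± 0.25. The d14 mean was below the d7 mean in 74 members, with a median difference of -0.12 against -0.01 over all genes. Shares over all genes were not counted for this or for the unadjusted calls, and the members were chosen on both ages. Nothing is read from these counts. Without array 2 or 3 of d3, which share the estimate of the spread, or array 2 of d7, 2 members were lower.

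The level to which the members returned was set against the level from which they came. In d7 and d14 together 66 members were higher than in e18 and e20 together and 10 lower, against 32.9% and 44.8% of all genes. The medians were 0.60 for members and -0.11 for all genes. All 4 means entered the ranking, so here too the values over all genes are no measure of what such a choice brings. This comparison shares the e18 and e20 arrays with the one above, and its counts depended on e18: without the e18 arrays 26 members were higher and 19 lower, against 28.5% and 42.2% of all genes, so the share higher was then near that of the whole table. CIDEC rose by 3.62 ± 0.18 (adjusted p = 2.47e-15), PLB1 by 3.48 ± 0.16, FABP6 by 3.14 ± 0.31 and CELSR3 by 2.71 ± 0.23. CUBN was called higher too (adjusted p = 1.18e-09), with an e18 mean at or below background, and its difference was -0.22 without the e18 arrays. Of the members called lower, GJB1 fell by 1.22 ± 0.15 (adjusted p = 9.14e-08), DFNA5 by 0.88 ± 0.11, AIFM2, a reductase of coenzyme Q, by 0.86 ± 0.30 and SEBOX by 0.74 ± 0.27. HPX was called lower (adjusted p = 0.00731), with e20 as the only one of these 4 ages above background. LRFN5, DCXR, BMX, RGCC and CRYL1 were also lower.

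By role, 15 of 15 lipid and bile acid genes were higher at d7 and d14 than at e18 and e20. Of the nucleotide, sulfate and cofactor genes 8 of 9 were higher. Over all genes 32.9% were higher and 44.8% lower. Against e20 alone, with the e18 arrays left out, the counts were 11 higher and 0 lower of 15, and 4 higher and 3 lower of 9. Over all genes 28.5% were then higher and 42.2% lower. CIDEC, for example, averaged 3.72 at e18, 6.56 at e20, 8.85 at d7 and 8.68 at d14. BAAT and PDSS1 were above e18 at d7 and d14, but not above e20. BAAT averaged 9.78 at e18, 11.33 at e20, 11.28 at d7 and 11.10 at d14, and PDSS1, which starts the side chain of coenzyme Q, 7.41, 9.33, 8.79 and 8.67. In the group of signalling, junction and transcription genes 8 were higher and 6 lower of 18 (2 and 7 without e18), and in redox and conjugation 5 were higher and 2 lower of 13 (2 and 2 without e18). In 61 members the rise from e18 to e20 and the higher level at d7 and d14 were both called, beside 15.2% of all genes, in comparisons that share the e18 and e20 arrays.

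**Figure D4:**
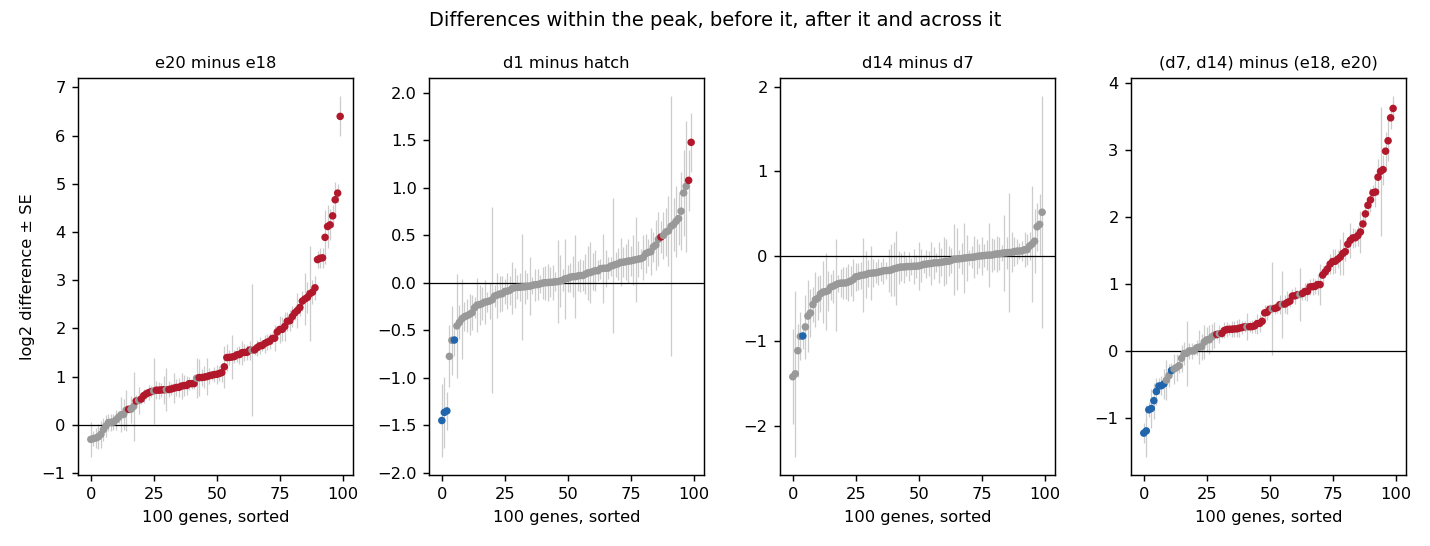
Log2 differences ± SE of the 100 members, sorted within each panel, for e20 minus e18, d1 minus hatch, d14 minus d7, and d7 with d14 minus e18 with e20; red and blue points were called higher and lower (limma, adjusted p under 0.05), grey points were not. Of the members 78 are red in the first panel, 3 in the second, 0 in the third and 66 in the last.

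Wider pathways to which members belong were counted over all their tested genes, for hatch and d1 together against e18, e20, d7 and d14. This contrast uses the ages of the ranking, all members were called higher in it, and over all genes 26% were higher and 27.7% lower. A gene very low at e18 alone can pass it without peaking, so the count with both means above all flanking ages is given as well. Likewise, a gene very high at e18 alone, or high only at d7 and d14, can be called lower without a dip at hatch and d1. Counts of higher genes without the members, which were chosen on the same arrays, follow each list that holds any. Counts of the peaked shape (both means above all flanking ages) include the members, which all have it by the ranking. Over all genes 8.09% had that shape.

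Of 31 genes of fatty acid oxidation and ketogenesis, 4 of them members (ACOX2, ACOT8, ACAA2 and CPT2), 25 were higher and 2 lower (21 of 27 higher without the members), and 16 had both means above all flanking ages. ACSL5, which activates fatty acids, was 1.75 ± 0.11 higher (log2 ± SE, adjusted p = 3.33e-12) but stood at 12.54 at d14 against 12.91 at d1. Of 60 antioxidant and metal response genes, with ME1, ALAS1, NQO1, GSS, CYBRD1 and GPX4 as members, 37 were higher and 9 lower (31 of 54 higher without the members), and 17 had the peaked shape. TFRC, the transferrin receptor, was 1.77 ± 0.12 higher (adjusted p = 1.91e-11), with 8.69 at e20 and 8.55 at hatch. Of 40 genes of amino acid, polyamine and one-carbon metabolism, with GLDC, AGMAT, CSAD, UPP1 and ADA as members, 25 were higher and 4 lower (20 of 35 higher without the members), and 11 had the peaked shape. UPP1 and ADA, which this list includes, are the nucleotide enzymes described above.

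Of 20 brush border hydrolases, with TMPRSS15, PLB1 and FOLH1 as members, 15 were higher and 2 lower (12 of 17 higher without the members). Of these 20, only 4 had the peaked shape, the 3 members among them. DPP4, a brush border peptidase, was 2.27 ± 0.13 higher (adjusted p = 1.14e-12) and went from 5.62 at e18 to 13.00 at d1 and 12.45 at d14. Of 63 respiratory chain subunits 57 were higher and 0 lower (58 and 0 at an unadjusted p under 0.05 in limma), with a median of 0.36. Of these 63, 34 had the peaked shape, but none was a member. NDUFV1, a subunit of complex I, was 0.92 ± 0.06 higher (adjusted p = 6.22e-12). Of 30 nuclear receptors and gut transcription factors, with NR0B2 and NR1I3 as members, 14 were higher and 6 lower (12 of 28 higher without the members), and 5 had the peaked shape. Of 23 lipid absorption and lipoprotein genes, with CUBN and FABP6 as members, 13 were higher and 7 lower (11 of 21 higher without the members). Of these 23, 3 had the peaked shape, the 2 members among them. APOA4, an apolipoprotein, went from 4.07 at e18 to 14.30 at d1 and was at 14.40 at d14. Of 37 enterocyte cytoskeleton and junction genes 21 were higher and 8 lower, 2 with the peaked shape and none a member.

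Lists of immune genes and of immediate early genes held more lower than higher genes. Of 29 heat shock genes 6 were higher and 10 lower, and of 31 amino acid and ER stress genes 5 were higher and 8 lower. Over all genes 26% were higher and 27.7% lower. Of 29 acute phase and antimicrobial genes, with HPX and REG4 as members, 7 were higher and 17 lower (5 of 27 higher without the members). Of 41 cytokine, chemokine and inflammation genes 3 were higher and 26 lower, and of 27 immediate early genes 2 were higher and 15 lower. Of 9 T cell markers 8 were lower and of 10 macrophage markers 9 were, with 0 higher in both lists, also at an unadjusted p under 0.05 in limma. Over the 14 T cell markers on the array, the mean lay between 3.56 and 3.71 at e20, 3.82 and 3.89 at hatch and 6.21 and 6.46 at d14. Over the 12 macrophage markers it lay between 4.70 and 5.02 at e20, 4.73 and 5.07 at hatch and 6.86 and 7.35 at d14. Lower calls in both lists thus need not be a fall from e20. The part of these cells in the members' fall after d1 was not tested. Markers of dividing cells held 3 higher and 4 lower of 20. Of 8 heterophil markers 1 was higher and 7 lower. Of 12 pancreatic genes 0 were higher and 11 lower (0 and 11 also at an unadjusted p under 0.05 in limma). Both lists were high at e18. Averages over the 11 heterophil genes on the array were 3.57 to 3.73 at e20 and 3.46 to 3.70 at hatch. Those over the 17 pancreatic genes were 2.85 to 3.58 at e20 and 2.85 to 3.68 at hatch. A lower call in these lists therefore need not be a fall from e20. Goblet cells, the mucus makers, had 2 higher and 2 lower of 7 markers, enteroendocrine cells 2 and 4 of 16, smooth muscle 2 and 2 of 13, and fibroblasts and matrix 2 and 10 of 20.

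**Figure D5:**
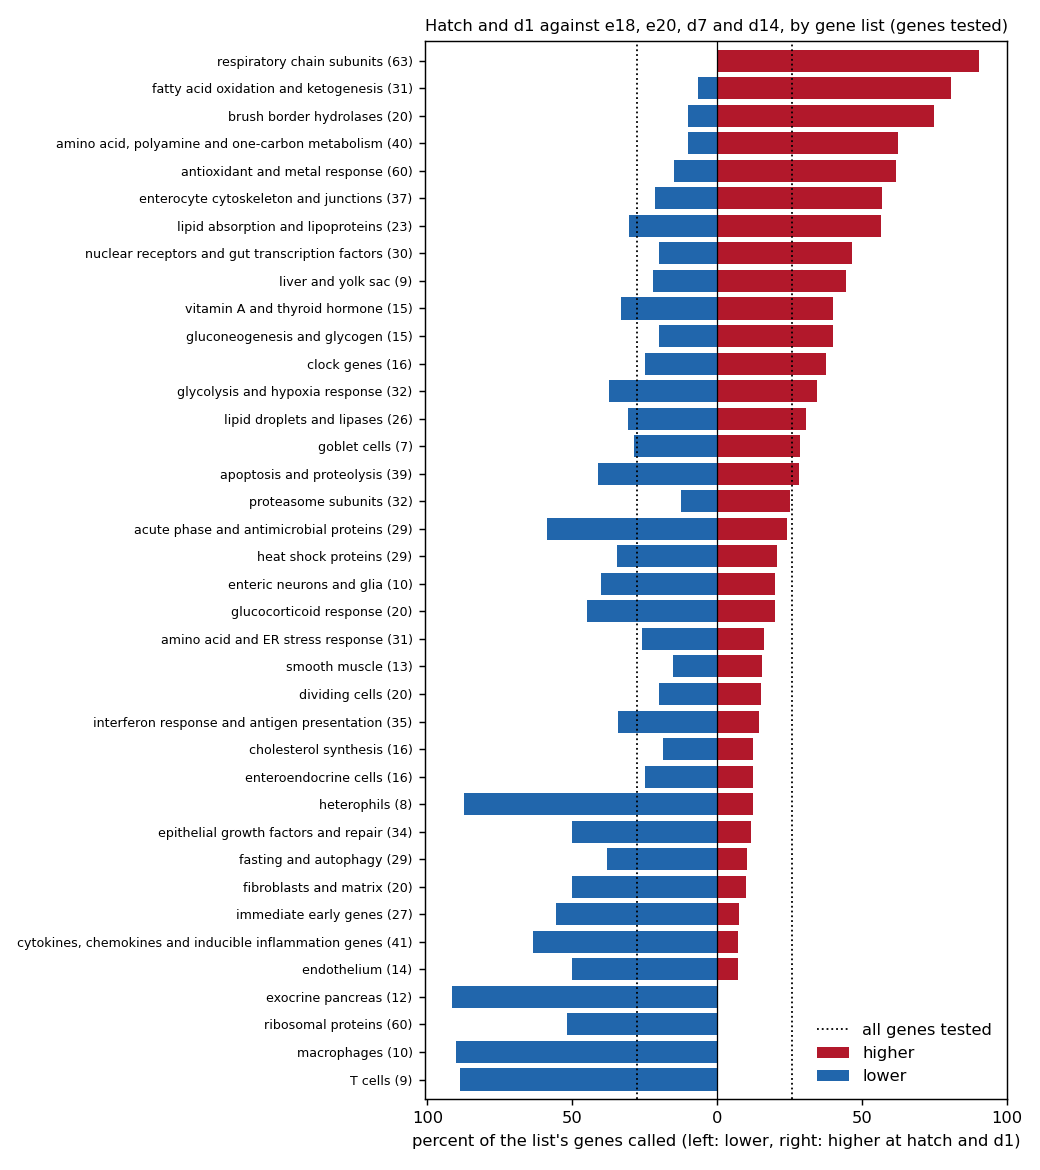
Percent of each gene list called higher (red, right) or lower (blue, left) at hatch and d1 against e18, e20, d7 and d14, for lists with at least 5 tested genes (numbers in brackets); dotted lines mark the 26% and 27.7% of all genes, and members are counted in their lists. Respiratory chain, fatty acid oxidation and brush border lists extend furthest right. T cell, macrophage, pancreas and ribosomal protein lists extend only left (ribosomal proteins with 31 of 60 lower).

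Genes that the ranking left out by prefix showed the shape too: 20 would have entered the first 100. GSTT1L, a glutathione transferase, had a height of 3.32, above GLDC, and went from 7.21 at e20 to 10.69 at hatch, 11.52 at d1 and 7.37 at d7. GSTT1 had a height of 2.20, CYP2C18, a cytochrome P450, 1.65, and ALDH1A1, a retinal dehydrogenase, 1.58.

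Other probe sets of the same genes gave a mixed picture. For 23 members 26 further probe sets passed the filter; 15 of these had a height above 0, 11 had not, and the median was 0.05. The second probe set of STEAP4 had a height of 2.28, that of HPGDS 0.76, that of ACOT8 0.70 and that of ACOX2 0.60. Those of UPP1, ACY1 and ADA were high at hatch but not at d1: for ADA 11.80 at hatch, 10.38 at d1 and 10.40 at d7. One probe set of HKDC1 gave 0.88 and another -1.30, and that of OGDH, at low intensity, -0.77.

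In the RefSeq gene order of assembly GRCg7b, 98 of the 100 symbols were found, on 26 chromosomes. PNAT3 and PNAT10 lie on chromosome 11 with 1 protein-coding gene between them, SEBOX and VTN on chromosome 19 with 1 between them, and BPNT1 and LYPLAL1 on chromosome 3 with 2 between them.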

How the data were processed

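One table of the whole series was used, with 38535 probe sets on 28 arrays. Per the submitters' processing notes the authors' deposited intensity values were made with GCRMA, a summary of probe sets with a background correction based on probe sequence; its version is not given in the sources used here. GCRMA pulls dim probe sets to nearly constant values, so differences of weak genes can be understated. Here log2 of the deposited intensities was taken, the probe set with the highest mean stood for each of 13009 symbols, and 8396 genes passed the filter (over 4 on the log2 scale, 4 arrays or more). Another 177 probe sets listed several genes and 11037 none, and these were not named.

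The fit used limma 3.58.1 under R 4.3.3 on all 28 arrays, with a mean for each age (21 residual and 3.13 prior degrees of freedom). All tests were two-sided with Benjamini-Hochberg adjustment across the 8396 genes, and an adjusted p under 0.05 was a call. In 4 of the contrasts tested the ranking favours no direction. The contrast behind the gene lists, hatch and d1 against e18, e20, d7 and d14, compares the ages on which the members were chosen. On simulated data with 200 genes changed by 1 log2 unit between hatch and d1, 90.5% were called, with 11 false calls among 8396 genes. The simulated arrays varied independently and few genes changed, unlike in the arrays measured here. These rates therefore cannot be carried over to the reported calls. Where an age mean was at or below background, the fold is given as a lower bound against that background. The number of arrays limits the precision, and 0 pairs of arrays held identical values.

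The 100 members, the 40 gene lists and the role groups were chosen with earlier results of these data known. All members could be named. Values at some or all ages were given for the first 30 by height and for members on a list. Heights were given for the 10 genes around the limit. Values or differences between ages were also given for the 5 largest called changes per direction of each of the 4 contrasts that the ranking does not favour. Other members named here serve their role group. Values in every array were given for the first 6 and for the first member of each list with more than 1. Array values of LOC770450, and part of those of LOC771994, were added because their first 2 and last 2 arrays lay far apart. From each list up to 3 other genes could be named, those with the largest called change. Promoter motifs were not analysed here. Alternatives were the mean over probe sets, other filters, quantile normalization, equal medians, medians per age, day 3 among the flanking ages, no prefix left out, the e18 arrays or any single array left out, and a term for the first 2 against the last 2 arrays of each age, chosen after seeing the data.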

Additional observations from a re-analysis of the deposited data

Results flagged for a closer look

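In 22 members, each age's 4 arrays were searched for a single array far from the other 3 by Dixon's test at the 95% level. Of 154 groups 8 were picked out, and chance picks out about 1 group in 20. The value of STEAP4 in array 4 of e20 was 5.19 against 3.04 for the nearest array. TMEM213 stood at 5.19 in array 4 of d3 against 4.28. TMPRSS15 stood at 3.37 in array 4 of e18 against 2.74, and BMX at 3.97 in array 4 of e20 against 3.20. ACOX2 read 7.91 in array 1 of e20 against 7.37, and ABHD3 2.35 in array 1 of e18 against 2.14, where its mean was at or below background. MPP1 was low in array 2 of hatch, at 10.86 against 11.17, and FABP6 in array 3 of e20, at 11.97 against 13.27.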

How the results depend on the processing

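The ranking kept between 80 and 97 of the 100 members under the 9 other settings, the lowest without the exclusion by prefix, and between 89 and 100 when single arrays were left out. With day 3 among the flanking ages 82 remained, and the heights of STEAP4 and RGCC were -0.0581 and -0.0932. Of 467 counts of calls and lists 452 stayed within 1.5 times of the value reported.

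For day 1 against hatch, members higher at d1 numbered 5 after quantile normalization, 7 with equal medians, 5 without e18 and 7 with the term for pairs of arrays; members lower at d1 numbered 7 with the mean over probe sets and 2 with the filter at log2 over 6. Leaving out single arrays gave between 2 and 6 higher and between 4 and 7 lower. OGDH, day 1 against hatch, was -0.11 with the mean over probe sets.

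For d7 and d14 against e18 and e20, 26 members were higher at d7 and d14 and 19 lower without e18, and CUBN stood at -0.22; fewer arrays enter that comparison. For d14 against d7, members lower at d14 numbered 2 with the term for pairs of arrays and between 1 and 2 without single arrays. For e20 against e18, members lower at e20 numbered between 0 and 1. The cause of these shifts was not tested. Probe sets near background limit what can be seen of 8 members at 1 or more ages.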
